A study of Homo sapiens with 6 samples.

Results

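The 55 genes described here encode proteins of mitosis: the cyclins and kinases that start it, the kinetochore and the checkpoint that guards it, the kinesins and spindle proteins that move the chromosomes, condensin, and the ubiquitin ligase parts that end it. They were taken by symbol from a table of 57820 genes, all 55 symbols had a row, and all 55 passed the filter on low counts. The study asked which genes respond when STAG2, a subunit of cohesin, is lost from melanoma cells. RNA was sequenced from M14, a human melanoma cell line that carries a doxycycline-inducible shRNA against STAG2. Knockdown (KD) cells received doxycycline at 5 µg/ml, and wild-type (WT) cells carried the same construct without doxycycline, so WT here means shRNA not induced. Cells of both groups were kept in puromycin at 1 µg/ml and collected after 5 days, and each group had 3 libraries, which the study describes as biologically independent samples. The knockdown rested on 1 shRNA in a stably selected population, with no arm in the libraries analysed here that received doxycycline without that shRNA. Doxycycline and knockdown therefore cannot be told apart in these data.

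Mitosis begins when CDK1 bound to cyclin B is switched on by CDC25 phosphatases, and Polo-like and Aurora kinases then carry the signal to centrosomes, chromosomes and spindle. Condensin and topoisomerase II compact and untangle the chromosomes, kinetochores built on CENPA chromatin bind microtubules, and the BUB and MAD proteins hold back the anaphase-promoting complex until each chromosome is attached. CDC20 and UBE2C then let the complex destroy securin and cyclin B, separase cuts cohesin, and midzone proteins direct the cleavage of the cell. Many of these genes are transcribed mainly in G2 and M, and their promoters are known for a CHR element, bound by the DREAM and MYBL2-MuvB complexes, and for CCAAT boxes bound by NF-Y. A transcript level in bulk RNA averages over cells, so fewer cells in mitosis and less RNA in each cell cannot be told apart in these data. The paper states from earlier work that STAG2 knockdown had no apparent effect on progression through the cell cycle in melanoma cells.

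Promoter letters are shown for 8 genes, because the windows of most of the genes hold CHR letters. The genes were not chosen by these letters. Promoters of many mitotic genes are known for a CHR, however, so its share here is not independent of the choice. Each line holds the 120 bases before the RefSeq transcription start on GRCh38.p14, 5′ to 3′ on the strand of the gene. Capitals mark the CHR letters (TTTGAA or TTCGAA, either strand) and the CCAAT box (CCAAT, or ATTGG for the other strand), which overlap each other in MKI67. The first 7 carry a CHR close to the start, and KIF20A, the gene with the largest fold change, has 2 CCAAT boxes and neither TTTGAA nor TTCGAA, but holds TTTAAA, which is counted only in an alternative.
PLK1 (chr16:23678769-23678888, plus strand): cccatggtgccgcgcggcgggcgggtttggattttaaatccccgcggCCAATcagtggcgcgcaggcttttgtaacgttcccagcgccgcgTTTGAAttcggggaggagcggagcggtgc
CCNB2 (chr15:59105026-59105145, plus strand): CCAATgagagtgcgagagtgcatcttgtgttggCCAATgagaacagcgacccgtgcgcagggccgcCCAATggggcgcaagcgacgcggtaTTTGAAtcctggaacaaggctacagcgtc
KIF4A (chrX:70289984-70290103, plus strand): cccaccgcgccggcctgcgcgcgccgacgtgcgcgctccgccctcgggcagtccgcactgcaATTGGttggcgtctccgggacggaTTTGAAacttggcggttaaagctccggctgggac
CENPA (chr2:26785936-26786055, plus strand): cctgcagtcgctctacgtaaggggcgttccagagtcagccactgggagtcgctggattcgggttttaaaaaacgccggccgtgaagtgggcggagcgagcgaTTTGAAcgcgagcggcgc
PRC1 (chr15:90994536-90994655, minus strand): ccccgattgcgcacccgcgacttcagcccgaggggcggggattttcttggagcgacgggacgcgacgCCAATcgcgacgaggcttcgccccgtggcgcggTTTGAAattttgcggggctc
HMMR (chr5:163460512-163460631, plus strand): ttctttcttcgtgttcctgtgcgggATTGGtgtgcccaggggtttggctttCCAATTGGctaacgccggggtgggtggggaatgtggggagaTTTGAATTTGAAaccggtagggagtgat
MKI67 (chr10:128126424-128126543, minus strand): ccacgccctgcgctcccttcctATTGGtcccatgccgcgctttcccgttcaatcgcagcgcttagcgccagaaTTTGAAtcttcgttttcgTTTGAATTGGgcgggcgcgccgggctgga
KIF20A (chr5:138178992-138179111, plus strand): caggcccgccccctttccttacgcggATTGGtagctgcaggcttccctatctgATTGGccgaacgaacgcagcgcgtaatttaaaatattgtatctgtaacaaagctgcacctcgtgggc

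Counts were expected counts per gene, given here as CPM (counts scaled to library size with TMM factors). Totals ran from 24895998 in WT replicate 1 to 35181733 in WT replicate 2, and 3 counts, taken as the floor, came to between 0.0853 and 0.121 CPM, which covers counting error only. The gene with the lowest mean in WT, CDC25C, had between 5.63 and 9.32 CPM there, and the lowest single value of the 55 was 1.32 CPM (NUF2 in KD replicate 3), so all were above that floor. STAG2 was at 66.5, 34.8 and 28.8 CPM in WT replicates 1 to 3 and at 16.0, 7.31 and 6.69 CPM in KD, and its call was lost without some single libraries (log2 fold change −2.63 to −1.68, adjusted p up to 0.168). WT replicate 1 stood apart from the other libraries, with 5.07% of its counts on mitochondrial genes against 2.12 to 2.94% elsewhere. It also had the most genes above 0 counts, 20646, and KD replicate 1 had the fewest, 16028. Libraries with the same number resembled each other, most clearly in replicate 1, though the labels do not say what the numbers mark. A fit with the replicate number as a block is therefore given beside the fit without it where the call differs. Of 8 melanocyte markers, all were detected, with a summed level of 1861 to 6311 CPM in WT and 1195 to 2606 CPM in KD. WT replicate 1 was the highest for 7 of them, the exception being SOX10. Their median log2 fold change was −1.13. S100B was called lower in KD without the replicate block, while 6 of the 8 were called lower with it and 2 by DESeq2. Of all tested genes, 0.839% were called lower without the block, 4.42% with it and 2.77% by DESeq2. Markers of fibroblasts summed to at most 93.6 CPM, nearly all of it COL1A1, and those of endothelial cells and leukocytes to at most 6.18 and 3.7 CPM, with CD3E at 0 in all libraries. Of 6 keratinocyte and epithelial markers, KRT8 and KRT18 carried the summed 153 to 459.6 CPM, and EPCAM was at 0.406 CPM or less. The part of these lists in the results below was not tested.

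Transcripts of the mitotic genes were lower in KD as a body. Their summed level was 5725, 6160.0 and 6755 CPM in WT replicates 1 to 3 and 2069, 2881 and 3252 CPM in KD, which is 0.617, 0.604 and 0.636% of the counts against 0.221, 0.273 and 0.321%. Every KD library lay below every WT library, and KD replicate 1 was the lowest. All 55 genes had a log2 fold change below 0, as 52% of tested genes did, with a median of −1.21 and a range from −2.56 to −0.49, where the median of the 15605 genes tested was −0.03. At least a halving (log2 of −1 or less) was seen for 36 genes, a size reached by 9.05% of all tested genes. In each of the 3 same-numbered pairs, KD was below WT for 55 of 55 genes, with median log2 ratios of −1.59, −1.16 and −0.95 for replicates 1 to 3. The share of all tested genes below WT in all 3 pairs was not computed, so that count has no background here. For 48 of the 55 (87.3%) no KD library reached any WT library, which was so for 10.5% of tested genes.

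**Figure D1:**
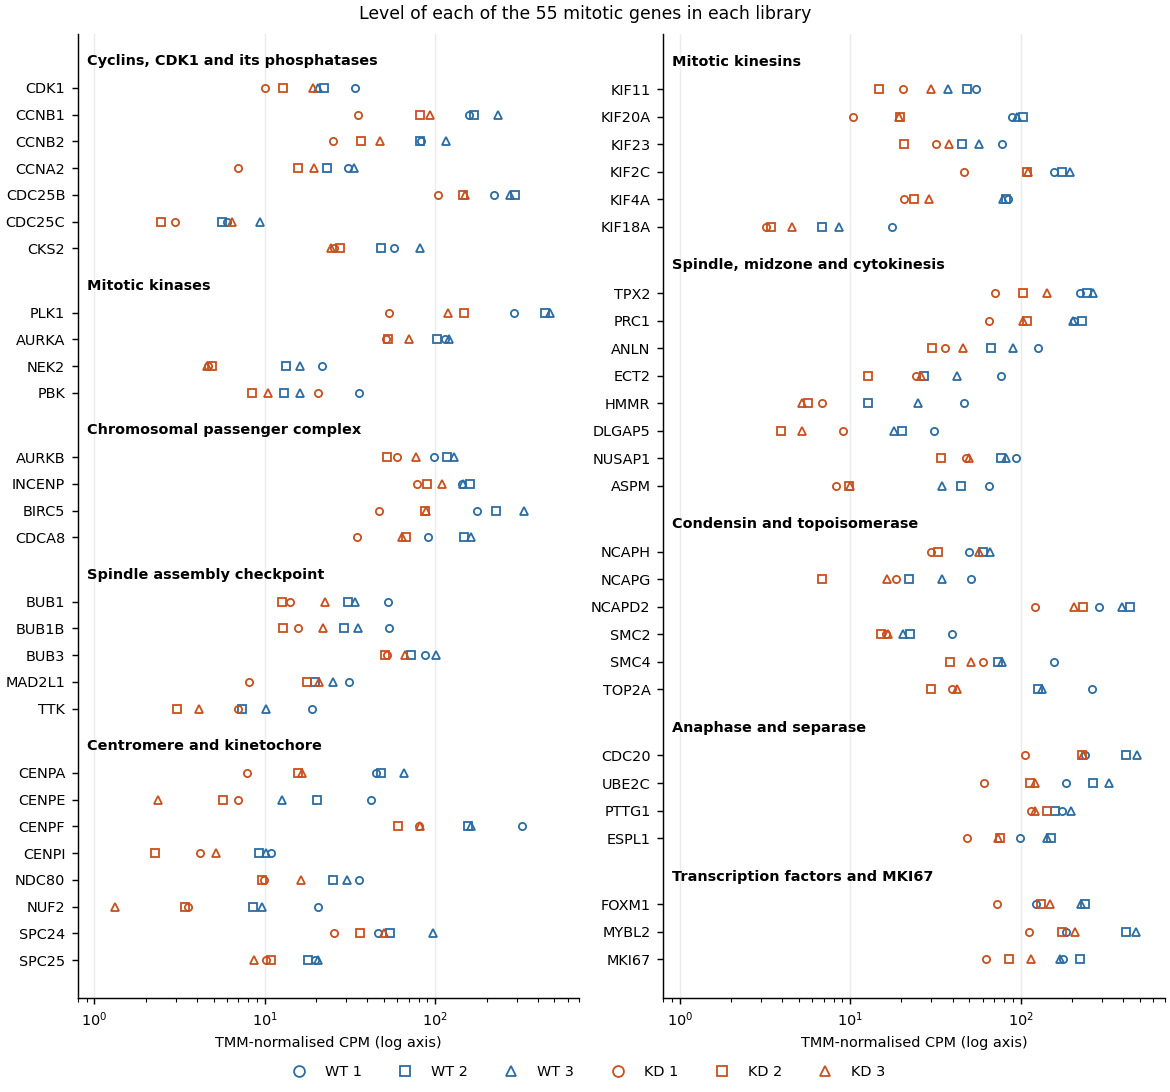
TMM-normalised CPM on a log axis of each of the 55 mitotic genes in the 3 WT libraries (blue) and the 3 KD libraries (orange), grouped by role, with 1 symbol per library. The orange symbols lie left of the blue ones without overlap in 48 rows, and the 2 colours overlap in CDC25C, PBK, MAD2L1, SPC24, NCAPH, FOXM1 and MYBL2.

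The edgeR quasi-likelihood test called 21 of the 55 genes (38.2%) lower in KD at a Benjamini-Hochberg adjusted p under 0.05, while 0.839% of all tested genes were called lower. These 21 were 16% of the 131 genes called lower. None of the 55 was called higher, while 1.75% of tested genes were, 5.1% with the replicate block and 3.51% by DESeq2, and none of the 55 had a positive fold change in these fits at any p. With the replicate block, 48 of the 55 (87.3%) were called lower, against 4.42% of tested genes, and 51 were lower at an unadjusted p under 0.05 without it, against 6.98% of tested genes. DESeq2 called 43, with a background of 2.77%. In simulated data without a replicate effect it called 40 unchanged genes, where edgeR called 5. The counts of the role groups below stand beside the same shares of all tested genes. The count without the block changed with the libraries kept, being 24, 10 and 4 genes without WT replicates 1, 2 and 3 and 8, 4 and 5 without KD replicates 1, 2 and 3. Over all genes, 191, 44 and 34 and 56, 30 and 15 were called lower in the same order, against 131 with all libraries. KIF20A, KIF4A, ASPM and TOP2A were called each time. The fold changes were negative for all 55 in each of the 18 alternatives run. CDK1, CDC25C, PBK, MAD2L1, NCAPH, SMC2 and PTTG1 passed neither fit. An exact permutation test of 1 gene over 6 libraries gives a two-sided p of 0.1 at the least, so no gene can pass it alone.

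**Figure D2:**
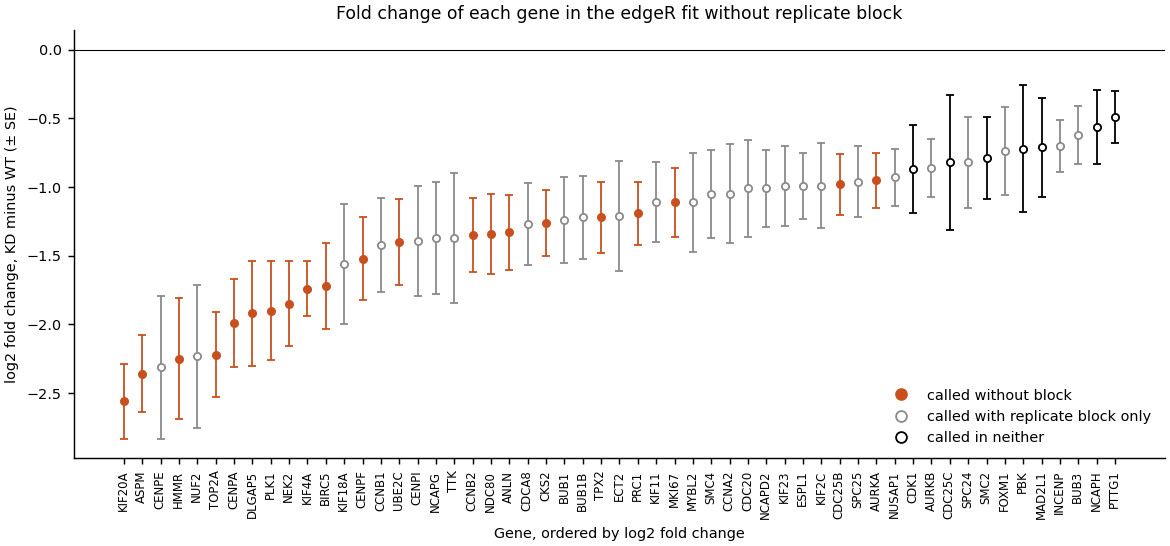
Log2 fold change, KD minus WT, with its standard error, for the 55 genes in order of size from the edgeR fit without replicate block, with filled orange points for genes called in that fit, open grey for those called only with the block and open black for those called in neither. All points lie below 0, from KIF20A at −2.56 to PTTG1 at −0.49, and the 7 black points are at −0.87 or nearer to 0.

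Of the 7 genes that drive entry into mitosis, 3 passed the test without the block (CCNB2, CDC25B and CKS2) and 5 with it, and their median log2 fold change was −1.05. CCNB1, a B-type cyclin that activates CDK1, had 158, 168 and 234 CPM in WT and 35.2, 81.5 and 92.9 CPM in KD. Its groups did not overlap, and its log2 fold change of −1.42 (SE 0.34) missed the threshold without the block (adjusted p = 0.0663) and passed it with the block (0.00171). CCNB2, the other B-type cyclin, fell from 82.4, 81.4 and 115 CPM to 25, 36.7 and 47.4 CPM, a log2 change of −1.35 (SE 0.27, adjusted p = 0.032). KD replicate 1 was the lowest library for both cyclins. CKS2, a small subunit bound to CDK1, fell from 57.2, 47.9 and 81.1 CPM to a narrow 25.5, 27.7 and 24.6 CPM, with a log2 change of −1.26 (SE 0.24, adjusted p = 0.0262). CDC25B, a phosphatase that activates CDK1, fell by 0.98 on the log2 scale, and cyclin A2 (CCNA2) passed with the block at −1.14. CDK1 itself had 33.8, 22.3 and 20.6 CPM in WT and 9.96, 12.7 and 19.2 CPM in KD, and the highest KD library came close to the lowest WT one. Its log2 fold change was −0.87 (SE 0.32), with an adjusted p of 0.231 and 0.103 with the block. CDC25C overlapped between groups through KD replicate 3 (6.40 CPM), with an adjusted p of 0.508 and 0.196 with the block.

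Among the kinases, PLK1, AURKA and NEK2 passed without and with the block, and PBK passed neither. PLK1 (ENSG00000166851, chr16:23688977-23701688 on GRCh37), the Polo-like kinase of centrosomes and kinetochores, had 288, 439 and 472 CPM in WT and 53.5, 148 and 119 CPM in KD. The means were 399 ± 98.3 and 107 ± 48.2 CPM (SD, n = 3 each), a log2 fold change of −1.90 (SE 0.36, adjusted p = 0.0267). The lowest WT library was still above the highest KD library, and KD replicate 1 was the lowest. NEK2, a kinase that parts the centrosomes, fell from 21.6, 13.3 and 16.0 CPM to 4.64, 4.89 and 4.59 CPM, a log2 change of −1.85 (SE 0.31, adjusted p = 0.015). Its 3 KD libraries were nearly level. AURKA, the Aurora kinase of the spindle poles, fell by 0.95 on the log2 scale. PBK, a mitotic kinase of the MAPKK class, was high in replicate 1 of both groups, at 35.9 CPM in WT and 20.5 in KD, and the groups overlapped.

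The chromosomal passenger complex, which corrects wrong attachments at the inner centromere, holds the kinase AURKB, its activator INCENP, survivin (BIRC5) and borealin (CDCA8). BIRC5 had 175, 227 and 332 CPM in WT and 46.7, 86.5 and 88.7 CPM in KD, a log2 fold change of −1.72 (SE 0.31, adjusted p = 0.0214). CDCA8 had 90.8, 147 and 161 CPM in WT and 34.8, 67.2 and 63.7 CPM in KD, and passed with the block (−1.29, adjusted p = 0.000569) and not without it (0.0653). AURKB (−0.86) and INCENP (−0.70) had smaller fold changes and passed with the block alone. No KD library reached a WT library in any of the 4 genes, and INCENP was among the 5 smallest fold changes of the 55, with 144, 159 and 146 CPM in WT and 78.0, 89.2 and 109 CPM in KD.

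Of the 5 spindle assembly checkpoint genes, edgeR called none without the block, 4 were lower at an unadjusted p under 0.05, DESeq2 called 2, and edgeR with the block called 4. Of all tested genes, 6.98% were lower at that unadjusted p, 2.77% by DESeq2 and 4.42% with the block. BUB1, a kinase that recruits checkpoint proteins to kinetochores, had 52.5, 30.6 and 33.6 CPM in WT and 14, 12.6 and 22.6 CPM in KD. Its log2 fold change was −1.24 (SE 0.31, adjusted p = 0.0767) and −1.25 with the block (0.0132). TTK, the kinase that starts checkpoint signalling, had 19.0, 7.37 and 10.2 CPM in WT and 7, 3.05 and 4.13 CPM in KD. Here KD replicate 1 came near WT replicate 2, while within each pair KD was lower, and the adjusted p was 0.19 without and 0.0196 with the block. BUB1B passed with the block at −1.21. BUB3, a smaller checkpoint protein, had one of the smallest changes, with 86.7, 71.7 and 101 CPM in WT and 52.4, 50.5 and 66.1 CPM in KD (log2 −0.62, adjusted p = 0.0314 with the block). MAD2L1, which binds and inhibits CDC20, overlapped between groups, with 31.2, 19.6 and 25.2 CPM in WT and 8.12, 17.6 and 20.7 CPM in KD. It passed neither fit (log2 −0.71, adjusted p = 0.412 and 0.198).

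The 8 centromere and kinetochore genes had the lowest median of the 10 role groups, −1.46, and all 8 passed with the block, 3 of them (CENPA, CENPF and NDC80) also without it. CENPA, the histone H3 variant that marks the centromere, fell from 45.1, 48.2 and 65.8 CPM to 7.81, 15.7 and 16.5 CPM. Its level in KD was 25.2% of that in WT (log2 −1.99, SE 0.32, adjusted p = 0.0116), and the call held without 4 of the 6 libraries in turn. CENPE, the kinesin of the kinetochore, had the largest change of the group, with 41.7, 20.3 and 12.6 CPM in WT and 6.97, 5.68 and 2.36 CPM in KD. In both conditions replicate 1 was highest and replicate 3 lowest, and the log2 fold change of −2.31 (SE 0.52) had an adjusted p of 0.0517 without and 0.000509 with the block. CENPF, a large protein of the outer kinetochore, fell from 322, 155 and 161 CPM to 80.1, 60.7 and 81.4 CPM (log2 −1.52, SE 0.30, adjusted p = 0.0321). WT replicate 1 was far above the others. Of the NDC80 complex, which grips the microtubule, NDC80 fell from 35.7, 25.1 and 30.2 CPM to 9.90, 9.58 and 16.4 CPM (log2 −1.34, SE 0.29, adjusted p = 0.0462). Its partner NUF2 had 20.6, 8.5 and 9.61 CPM in WT and 3.52, 3.42 and 1.32 CPM in KD (log2 −2.23, SE 0.52, adjusted p = 0.0582 and 0.00588 with the block). The other two subunits, SPC24 (−0.82) and SPC25 (−0.96), had smaller fold changes, and SPC24 overlapped between groups. CENPI, a constitutive centromere protein and the gene with the lowest level per length, had 10.9, 9.22 and 10.2 CPM in WT and 4.14, 2.27 and 5.15 CPM in KD, and passed with the block alone (−1.47, adjusted p = 0.0292).

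All 6 mitotic kinesins passed with the block, and KIF20A and KIF4A also without it. KIF20A (ENSG00000112984, chr5:137514408-137523412 on GRCh37), a kinesin of the central spindle needed for cytokinesis, fell from 89.3, 104 and 95.5 CPM to 10.4, 19.5 and 19.3 CPM. This is 96.3 ± 7.47 against 16.4 ± 5.22 CPM (SD, n = 3 each), a level of 17% of WT and the largest fold change of the 55 (log2 −2.56, SE 0.27, adjusted p = 0.0011). The WT libraries lay close together and far above all KD libraries. KIF4A (chrX:69509954-69640736 on GRCh37), the chromokinesin that works with PRC1 at the midzone and with condensin, fell from 84.2, 82.6 and 79.0 CPM to 20.7, 23.7 and 29.1 CPM. The libraries of each group lay close together, at 82.0 ± 2.65 against 24.5 ± 4.27 CPM (SD, n = 3 each), and the log2 fold change was −1.74 (SE 0.20, adjusted p = 0.00183). KIF18A, which damps chromosome movement, had 17.5, 6.85 and 8.63 CPM in WT and 3.21, 3.42 and 4.56 CPM in KD, with an adjusted p of 0.117 without and 0.0477 with the block. KIF11, which pushes the poles apart, KIF23 of centralspindlin and KIF2C, a microtubule depolymerase, had log2 fold changes from −1.11 to −0.99.

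Of the 8 genes for spindle assembly, midzone and cytokinesis, 6 fell without the block and the other two (ECT2 and NUSAP1) with it, with a median of −1.28. ASPM (chr1:197053251-197115824 on GRCh37), a protein of the spindle poles, fell from 65.1, 44.9 and 34.5 CPM to 8.28, 9.78 and 10.0 CPM (log2 −2.36, SE 0.28, adjusted p = 0.00204). The KD libraries were close to each other and well below the lowest WT library. HMMR, a partner of TPX2 at spindle poles, fell from 46.6, 12.8 and 24.9 CPM to 6.88, 5.68 and 5.20 CPM (log2 −2.25, SE 0.44, adjusted p = 0.0307). Its WT libraries spread widely and its KD libraries did not. DLGAP5, which stabilises kinetochore fibres, fell from 31.1, 20.2 and 18.2 CPM to 9.12, 3.92 and 5.23 CPM (log2 −1.92, SE 0.38, adjusted p = 0.0325). ANLN, the anillin scaffold of the cleavage furrow, fell from 126, 67.5 and 90.5 CPM to 36.1, 30.3 and 46.1 CPM (log2 −1.33, SE 0.27, adjusted p = 0.0335). TPX2, which activates AURKA on the spindle, and PRC1, which bundles midzone microtubules, fell by 1.22 and 1.19 on the log2 scale. ECT2, the exchange factor that sets the cleavage plane, and NUSAP1, which binds spindle microtubules near chromatin, had −1.21 and −0.93 (adjusted p = 0.175 and 0.0525) and passed with the block.

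The 5 subunits of condensin I and the topoisomerase TOP2A divided. TOP2A (chr17:38544777-38574148 on GRCh37), which untangles sister chromatids, fell from 263, 127 and 133 CPM to 39.8, 29.8 and 42.5 CPM (log2 −2.22, SE 0.31, adjusted p = 0.00582). Although WT replicate 1 was about as high as the other two WT libraries together, the call held without any single library (adjusted p at most 0.0487). None of the 5 condensin genes passed without the block, and over the 6 genes 5 were lower at an unadjusted p under 0.05, DESeq2 called 4 and edgeR with the block 4. The shares of all tested genes were 6.98, 2.77 and 4.42% in the same order. NCAPG, one of the HEAT-repeat subunits, had 51.4, 22.1 and 34.5 CPM in WT and 18.5, 6.87 and 16.4 CPM in KD (log2 −1.37, SE 0.41, adjusted p = 0.142 and 0.00229 with the block). NCAPD2 (−1.01) and SMC4 (−1.05) also passed with the block alone. SMC2, the partner of SMC4 in the condensin ring, had −0.79 and passed neither fit, and its 3 KD libraries lay between 15.2 and 16.6 CPM. NCAPH, the kleisin that closes the ring, had 49.6, 59.8 and 66.6 CPM in WT and 29.9, 32.8 and 56.9 CPM in KD, with the groups overlapping through KD replicate 3 (log2 −0.56, adjusted p = 0.392 and 0.0662). Whether condensin genes differed from TOP2A was not tested.

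In the group that ends mitosis, UBE2C, the ubiquitin-conjugating enzyme of the anaphase-promoting complex, fell from 184, 267 and 329.6 CPM to 61.0, 113 and 122 CPM (log2 −1.40, SE 0.31, adjusted p = 0.0481). Within each condition replicate 1 was the lowest. CDC20, the activator of that complex, and ESPL1, the protease separase, had −1.01 and −0.99 and passed with the block. PTTG1 (securin), the inhibitor of separase, had the smallest fold change of all 55, with 175, 159.9 and 198 CPM in WT and 115, 142 and 121 CPM in KD. Those groups did not overlap, and its log2 fold change of −0.49 (SE 0.19) had an adjusted p of 0.24 and 0.0798 with the block. The transcription factors FOXM1 and MYBL2, which activate many of the genes above, overlapped between groups, with WT replicate 1 the lowest WT library in both. FOXM1 had 123, 238 and 227 CPM in WT and 72.4, 132 and 149 CPM in KD (log2 −0.74, adjusted p = 0.33), and MYBL2 had 185, 415 and 476 CPM in WT and 112, 176 and 208 CPM in KD (−1.11, 0.163). Both passed with the block (adjusted p = 0.00985 and 0.00234). MKI67, the Ki-67 protein that coats mitotic chromosomes and is used as a marker of cycling cells, had 178, 222 and 171 CPM in WT and 62.8, 85.7 and 115 CPM in KD (log2 −1.11, SE 0.25). Its adjusted p of 0.049993 was just under the threshold, and its groups did not overlap.

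Per kilobase of merged exon, UBE2C had the highest level of the 55 at 202 CPM per kb in WT and 76.9 in KD, followed by CDC20 at 189 and 94.0. CENPI had the lowest level at 1.45 and 0.552, below CDC25C at 2.09 and 1.18. Across the 55 genes the fold change had little relation to the level (Pearson r = 0.14 with the WT log2 CPM) or to exon length (−0.11), and a weak one to GC content (0.29). These describe genes that share 6 libraries, so no p is given. Reads of a neighbour on the same strand could enter 3 of the genes to some extent. CENPA overlaps SLC35F6 (2392 expected counts per library in WT and 4057 in KD), NUSAP1 overlaps OIP5-AS1 (931 and 616), and BUB1B overlaps PAK6 (159 and 54.8). Overlaps on the opposite strand, such as KIF20A with CDC23, were not searched, and the strand setting of the counting is not given. Of 13 related copies of the 55 genes in the table, 8 were at 0 in all libraries and none summed to over 39 counts.

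Another 93 genes of mitosis outside the 55, listed from general knowledge but with earlier results of these data known, were read from the same fit. edgeR called 4 of them (4.3%) lower without the block and 28 (30.1%) with it, and called none higher, and DESeq2 called 22 lower and none higher. Of all tested genes, 0.839% were called lower without the block, 4.42% with it and 2.77% by DESeq2. Called higher were 1.75, 5.1 and 3.51% in the same order. Their median log2 fold change was −0.52, against −1.21 for the 55. The 4 were KIF14, DEPDC1, CEP55 and TROAP, all from a list of 17 further spindle, kinesin and cytokinesis genes whose median was −1.05 and of which 13 passed with the block. KIF14, a kinesin that brings citron kinase to the midbody, fell from 36.2, 18.8 and 15 CPM to 4.54, 6.33 and 4.01 CPM (log2 −2.23, SE 0.39, adjusted p = 0.0179). DEPDC1 (−2.05), CEP55 of the midbody (−1.15) and TROAP (−1.27) had adjusted p of 0.0429, 0.046 and 0.046. No one of the 4 kept its call without each library in turn, and CEP55 lost it each time. The count of 4 became 2 without WT replicate 2, 1 without WT replicate 3 and 0 without any one of the KD libraries.

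The other lists had no call without the block. Their counts stand beside all tested genes, of which 4.42% were called lower with the block, 2.77% by DESeq2 and 6.98% at an unadjusted p. Further centromere and kinetochore genes had 5 of 29 called lower with the block, 5 by DESeq2 and 8 at an unadjusted p under 0.05, with a median of −0.51. Of these, the CENPA chaperone HJURP had −0.93 with the block (adjusted p = 0.0067). For subunits and regulators of the anaphase-promoting complex the count with the block was 2 of 15, with 2 by DESeq2 and 3 at an unadjusted p under 0.05, and the median was −0.15. Among 6 genes of condensin II and other chromosome proteins it was 3 (3 by DESeq2 and 4 unadjusted, median −0.61), and among 9 entry regulators 3 (3 and 3, median −0.51). For 6 further checkpoint and shugoshin genes it was 1 (0 by DESeq2 and 1 unadjusted, median −0.31). DNA replication genes had a median of −0.56, with 12 of 40 called lower with the block, 3 by DESeq2 and 15 at an unadjusted p under 0.05. No test compared these lists with the 55.

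**Figure D3:**
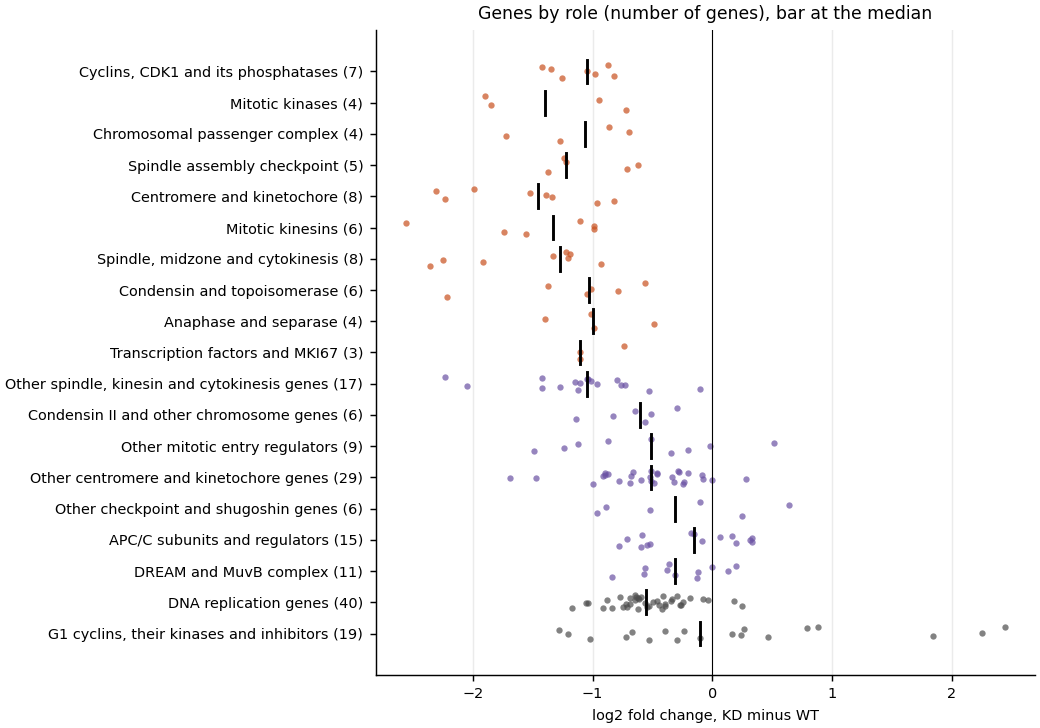
Log2 fold change, KD minus WT, of each gene in the 10 role groups of the 55 (orange), in 7 further mitotic lists (purple) and in 2 lists of other cell cycle genes (grey), with the number of genes in brackets and a black bar at the median. Medians run from −1.46 to −1 in the orange rows, are −1.05 in the further spindle genes and lie between −0.61 and −0.10 in the other rows.

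Regulators of these promoters were measured too. The pocket proteins RBL1 (p107) and RBL2 (p130), with E2F4 and the MuvB subunit LIN54, form the repressive DREAM complex. RBL1 had 22.1, 17.4 and 22.3 CPM in WT and 9.50, 11.8 and 13.2 CPM in KD, with a log2 fold change of −0.84 (SE 0.27) and an adjusted p of 0.158, or 0.0528 with the block. RBL2 (−0.13), E2F4 (0.13) and LIN54 (−0.56) had adjusted p from 0.619 to 0.903, and none passed with the block. The sign of RBL2 turned without WT replicate 1 (0.12) or KD replicate 3 (0.03), and that of E2F4 without WT replicate 1 (−0.04). Over the 11 genes of DREAM and MuvB, none was called without the block or by DESeq2, and 1 (9.09%) was lower at an unadjusted p under 0.05, near the 6.98% of all tested genes. TFDP1 alone was called with the block (−0.59, adjusted p = 0.0305), as 4.42% of all tested genes were. CDKN1A (p21), an inhibitor of cyclin-dependent kinases, moved the other way. It rose from 24.3, 62.8 and 77.9 CPM to 241, 273 and 269 CPM, a log2 change of 2.25 (SE 0.37, adjusted p = 0.0139), and each KD library was far above each WT library. Of the 19 G1 genes, CDKN1A and the CDK4/6 inhibitor CDKN2B (14.4, 9.03 and 7.58 CPM in WT, 46.0, 34.9 and 30.4 CPM in KD, log2 1.84, adjusted p = 0.0146) were the 2 called higher, and DESeq2 also called 2 higher. With the block 4 were called higher, and 4 were higher at an unadjusted p under 0.05. Of all tested genes, 1.75% were called higher without the block, 3.51% by DESeq2, 5.1% with the block and 7.77% at the unadjusted p. None of the 19 was called lower without the block or by DESeq2. At an unadjusted p under 0.05, 2 were lower, and 3 with the block, against 6.98 and 4.42% of tested genes. CDKN1A and CDKN2B lost their call without some libraries (adjusted p up to 0.0669 and 0.0764).

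RefSeq promoter windows, from 250 bases before to 50 after a start, were matched to 47 of the 55 genes. The CHR letters were in a window of 35 of the 47 (74.5%), against 15.5% of the 10141 tested genes with a window and 19.5% of all 27305 genes with one. CCAAT boxes were in 36 (76.6%), against 43.6% and 39.7%, and both in 1 window in 28 (59.6%), against 6.49% and 7.85%. With TTTAAA counted as well, 41 genes (87.2%) had CHR letters against 23% of tested genes, and from 100 before to 50 after the start 32 (68.1%) had TTTGAA or TTCGAA against 6.82%. In the 29 genes with 1 window and CHR letters there were 38 matches, and 29 of these began from 60 bases before to 50 after the start, 20 of them within the last 40 bases before it. In PLK1 and CCNB2, shown above, the letters lie 29 to 24 bases before the start, in KIF4A 34 to 29, in PRC1 20 to 15 and in CENPA 18 to 13. These letters are a description of the windows, not a bound site.

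The median log2 fold change was −1.22 in the 35 genes with CHR letters, −1.08 in the 12 without and −1.08 in the 8 with no window. KIF20A, with the largest fall, was among the 12, although with TTTAAA counted its window has 1 match. CCNB1, CENPE, KIF2C, NCAPH and PTTG1 of the 12 also had TTTAAA in a window. The group without the letters is therefore not free of this form. Outside the 55, 661 tested genes had CHR letters from 100 before to 50 after the start. Only the 55 were left out, so genes of the other mitotic and DNA replication lists were not removed. Their median was −0.10, and 15 (2.27%) were called lower without the block and 54 (8.17%) with it. In the 9467 tested genes without the letters there, the median was −0.01, and 0.676% and 4.11% were called lower. In the 283 that also had a CCAAT box the median was −0.17, and 4.24% and 12.4% were called lower. The 32 mitotic genes with CHR letters in that range had a median of −1.22.

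**Figure D4:**
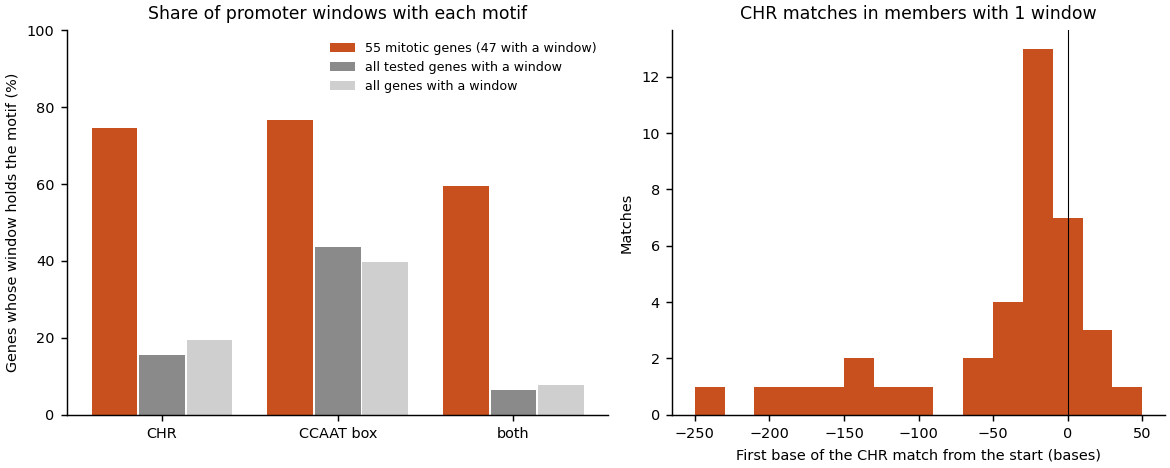
Left, share of genes (%) whose promoter window holds CHR letters, a CCAAT box or both, for the mitotic genes with a window (orange), all tested genes with a window (dark grey) and all genes with a window (light grey). Right, number of CHR matches by distance of their first base from the start in genes with 1 window. The orange bars reach 74.5, 76.6 and 59.6%, and the matches pile up just before the start, with 20 of 38 in the last 40 bases.

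Replicate 1 differed from replicates 2 and 3 in both conditions, along the GC content of the transcripts. The log2 level in WT replicate 1 minus the mean of the other two ran from 1.38 in HMMR and CENPE, which have 36.3 and 35.4% GC, to −1.26 in MYBL2, with 60.5% GC. Over the 55 genes this difference had a Pearson r of −0.85 with GC content in WT and −0.58 in KD, and 0.76 between WT and KD. CENPE, NUF2 and TTK, with 35.4, 38.8 and 40.8% GC, were higher in replicate 1 in both conditions, and KD was below WT in each pair of these genes. The part of GC content in the results was not tested beyond the values given next. Without replicate 1 of both conditions the median log2 fold change was −0.96, and 26 genes were called lower, against 1.85% of tested genes. A GC correction of each library, chosen after the data had been seen, gave 30 genes, against 1.42% of tested genes, and 49 with the replicate block, against 4.92% of tested genes.

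**Figure D5:**
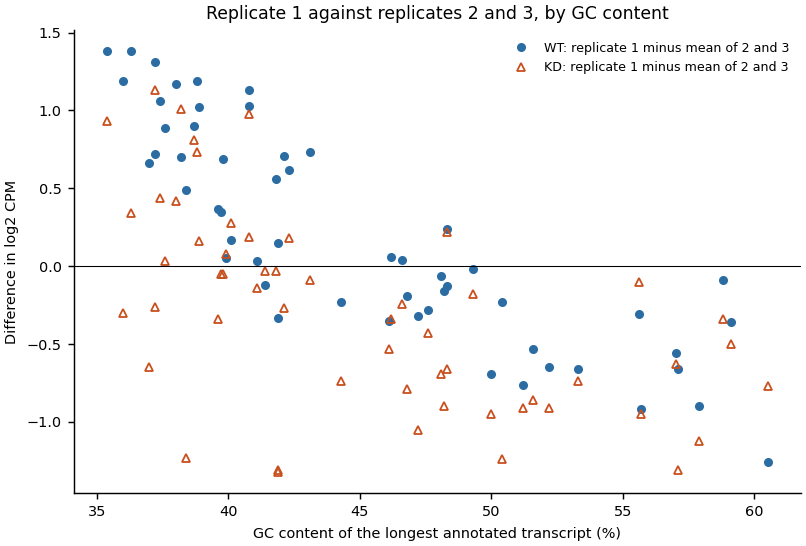
Log2 CPM in replicate 1 minus the mean of replicates 2 and 3 for each of the 55 genes, against the GC content of its longest annotated transcript (%), in WT (filled circles) and KD (open triangles). Both fall from left to right, with r = −0.85 in WT and −0.58 in KD, and most KD points lie below the WT point of the same gene.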

How the data were processed

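RNA-seq libraries of 3 WT and 3 KD samples of M14 cells were analysed. The values the authors deposited are expected counts for each gene, not scaled between libraries. Directional polyadenylated libraries were read as single reads of 50 bases, and the submitters' processing notes name STAR 2.7.0f, RSEM 1.3.0 and hg19. RSEM splits reads that fit more than 1 gene, and its annotation version and strand setting are not given in the sources used here. No row lacked a gene name.

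Counts were rounded, filtered by filterByExpr (15605 genes) and scaled by TMM, and the quasi-likelihood test of edgeR 4.0.16 (R 4.3.3) was run for KD against WT. The p-values were adjusted by Benjamini and Hochberg's method over the whole tested table, with a threshold of 0.05. The standard error is the absolute log2 fold change divided by the square root of F. The test replaces the comparison step of RSEM, which was not run here. Same-numbered libraries deviated together from their group means (r = 0.561, 0.4 and 0.319 across 10570 genes of at least 5 CPM, log2 with a pseudocount of 0.5). The numbers, whose meaning the labels do not give, were therefore taken to pair the libraries. Between the others r was 0.253 for WT replicate 2 with KD replicate 3, 0.204 for WT replicate 3 with KD replicate 2 and −0.469 to −0.368 with replicate 1. The pairing was thus inferred from the same counts that the block was fitted to. Alternatives were the replicate block, DESeq2 1.42.0, limma-voom (limma 3.58.1), other scalings, other filters, each library or replicate 1 left out, and a GC correction chosen after the data had been seen. The latter used 97.1% of tested genes, those with a GC value from GENCODE release 44 lifted to GRCh37, which is not the annotation of the counting. That annotation also gave gene positions and merged exon lengths. Tested on simulated data without a replicate effect (14794 genes), edgeR called 89% of 4-fold and 26% of 2-fold changes and 5 unchanged genes. With the block it called 84 and 15% and 1 unchanged gene, and DESeq2 called 93 and 43% and 40 unchanged genes. With a replicate effect (15080 genes) edgeR called 87 and 16% and 0 unchanged genes, and with the block 95 and 74% and 3 unchanged genes. DESeq2 then called 95 and 46% and 5 unchanged genes. That effect was a shift per gene shared by replicate 1 of both conditions, with a lower dispersion. It favours the block by construction.

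The 55 genes and all lists were chosen with earlier results of these data known. Named with values per library were the 25 with the largest absolute log2 fold change among genes called without or with the block, the 5 with the smallest, those highest and lowest per length, up to 8 called genes of other lists, STAG2, RBL1, RBL2, E2F4, LIN54 and CDKN1A. CDK1, CDC25C, PBK, SMC2, SPC24, FOXM1, MYBL2, MKI67, HJURP and TFDP1 were given further values after these had been seen. Promoters of 47 genes came from RefSeq (GRCh38.p14). Both strands were searched for the CHR letters TTTGAA and TTCGAA, for TTTAAA in an alternative, and for CCAAT, and matches may overlap. PECAM1 was not analysed here.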

Additional observations from a re-analysis of the deposited data

How the results depend on the processing

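The replicate block takes the numbers to pair the libraries, although the labels do not say so. With it 48 of the 55 genes were called lower, as were 28 of 93 other mitotic genes and 690 of all genes, and 796 were called higher. DESeq2 gave 43, 22, 432 and 547 in the same order, and no filter on low counts 44, 23, 530 and 573. The GC correction gave 12 other mitotic genes and 215 lower genes, and with the block 49, 29, 745 and 879. Without replicate 1 of both conditions 13 other mitotic genes, 296 lower and 461 higher genes were called and the median log2 fold change of the 55 was −0.96, and with the block as well 41, 24, 629 and 812 were called and the median was −0.97. With at least 10 counts in every library, 8 other mitotic genes were called. With each library left out, the 55 had 4 to 24 calls, the other mitotic genes 0 to 6, all genes 15 to 191 lower and 106 to 340 higher, and the median ran from −1.38 to −1.09. The libraries behind these ranges are named beside the counts of the 55. Limma-voom, RLE, upper-quartile and total-count scaling kept all these counts within 1.5 times. None of the 55 genes changed sign. With each library left out, RBL2 ran from −0.37 to 0.12 and E2F4 from −0.04 to 0.28, so the direction of both turned in 3 values. Of the other values for single named genes, 929 kept their side of the threshold, 170 passed it only in the alternative and 122 missed it only there. In the simulations edgeR without the block called 26 and 16% of 2-fold changes, without and with a replicate effect. With the block it called 15 and 74%, and DESeq2 called 43 and 46%. The median log2 fold change of the 55 in the main fit was −1.21. The cause of the differences was not tested.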
